A study of Homo sapiens with 6 samples.

Results

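Notch signalling passes between touching cells. A ligand of the Delta or Jagged family on one cell binds a Notch receptor on its neighbour, the receptor is cut by ADAM proteases and by gamma-secretase, and the freed intracellular part enters the nucleus, where it joins the DNA-binding protein RBPJ and Mastermind coactivators at target genes such as HES1 and HEY1. In blood vessels, DLL4 is the ligand of endothelial tip cells, and in liver the JAG1 and NOTCH2 pair is known for its part in forming bile ducts. The 10 genes described here are the ligands DLL4, DLL1, JAG1 and JAG2, the receptors NOTCH1, NOTCH2 and NOTCH3, the DNA-binding protein RBPJ, and the targets HES1 and HEY1. They were found by gene name, and all 10 were among the 27605 genes of the deposited table. DLL4 was included because it was higher from very low values in the comparison below, so its values are a description and carry no test. The other 9 genes were included for their role in the pathway, with earlier results of these data known.

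Polyadenylated RNA was sequenced from cells labelled HepG2, a human liver cancer line. In the shNC group (n = 3 libraries), labelled WT, the cells carried a control hairpin, and in the shARHGEF2 group (n = 3 libraries) a lentiviral hairpin against ARHGEF2, a guanine nucleotide exchange factor for RhoA, was used to knock that gene down. Neither a shared hairpin nor separate cultures are stated in the labels for the 3 shARHGEF2 libraries, so p-values measure the spread between these libraries only, which may be technical. Values are FPKM, that is, sequenced fragments scaled to transcript length and to the mapped fragments of the library, and can be set side by side between genes of different length.

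The knockdown was seen in the libraries. ARHGEF2 stood at 13.8 ± 0.700 FPKM in shNC cells and 4.36 ± 0.417 FPKM in shARHGEF2 cells (SD, n = 3 each; log2 difference -1.47, adjusted p = 0.00244 in limma, a linear-model test run across genes). Log2 differences here and below are differences in log2(FPKM + 1), shARHGEF2 minus shNC, unless stated otherwise. Depth was estimated from the spacing of low FPKM values at between 20135000 and 23305000 read pairs per library. GC content separated libraries within each group: Spearman's rho between a library's deviation and transcript GC content, across 12231 genes, which are not independent, lay between -0.465 in shNC replicate 2 and 0.569 in shARHGEF2 replicate 1. The hepatocyte markers went against the label. Of 17 listed, 10 were in the table, and VTN alone had a mean of at least 0.5 FPKM, while the other 9, AFP, APOA1 and HNF4A among them, did not pass 0.907 FPKM in any library.

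The 10 genes covered a wide range of levels. In shNC cells JAG2 was highest at 11.8 ± 4.01 FPKM (SD, n = 3), followed by NOTCH2, NOTCH1, HES1, JAG1, HEY1, RBPJ, NOTCH3, DLL4 and DLL1. The shNC libraries of neighbours in this order overlapped for NOTCH2 with NOTCH1, NOTCH1 with HES1, HEY1 with RBPJ, and RBPJ with NOTCH3. The other neighbours did not overlap. Within every shNC library NOTCH2 was above NOTCH1 and NOTCH1 above HES1. HEY1 with RBPJ, and RBPJ with NOTCH3, changed order between shNC libraries. Differences between genes were not tested. JAG2 is thus the ligand with the most mRNA here, NOTCH1 and NOTCH2 are the receptors with the most, and DLL1 was listed at 0 in 5 of the 6 libraries.

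**Figure D1:**
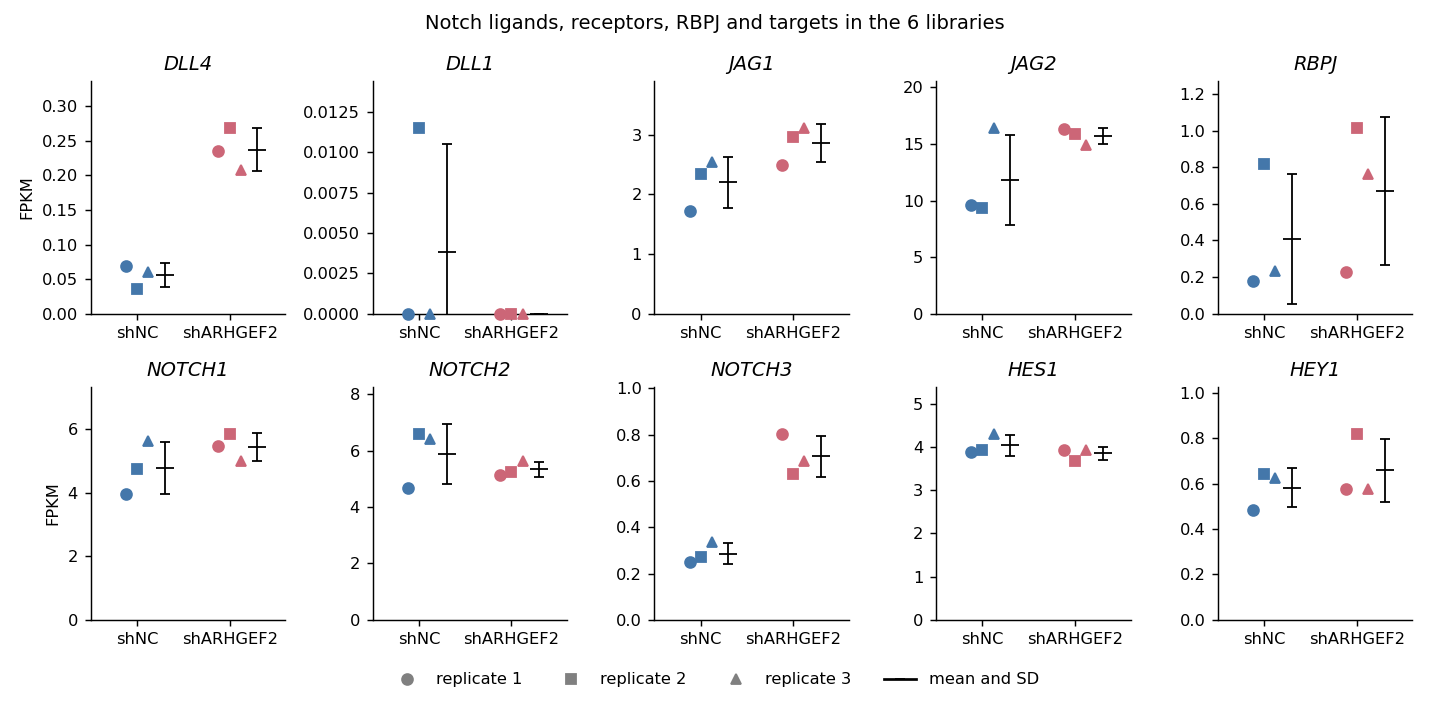
FPKM of the 10 Notch genes, each panel with its own linear axis from 0; points are single libraries (shNC blue, shARHGEF2 red, marker shape for the replicate number) and the black bars are the mean and SD of 3 libraries. In DLL4 and NOTCH3 all shARHGEF2 points lie above all shNC points, while in the other 8 genes the groups overlap.

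DLL4 (ENSG00000128917, chromosome 15 of GRCh38 from 40929333 to 40939073, plus strand) encodes a transmembrane Delta ligand. It had 0.0694, 0.0362 and 0.0608 FPKM in shNC replicates 1 to 3 and 0.235, 0.269 and 0.208 FPKM in shARHGEF2 replicates 1 to 3. All 3 shARHGEF2 values lay above all 3 shNC values, and all 6 were low. The means were 0.0555 ± 0.0173 and 0.237 ± 0.0309 FPKM (SD, n = 3 each), a ratio of 4.28, and with each library left out in turn the ratio lay between 3.64 and 4.90. On the longest listed transcript of 3426 nt, these values correspond to about 2.79 to 5.54 read pairs per shNC library and 16.4 to 20.5 per shARHGEF2 library. Of the 6595 genes with a mean between 0.05 and 0.5 FPKM, 6.17% had every shARHGEF2 library above every shNC library, and 3.55% also had a ratio of at least 2, bounds that were set after the data were seen. DLL4 was chosen for this pattern, so nothing is read from its place among them.

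Endothelial markers were set beside DLL4, since it is best known from vessels. Of 12 listed, 10 were in the table. CDH5, VWF, TEK, TIE1, CLDN5, ROBO4 and ERG had means under 0.5 FPKM and did not pass 0.119 FPKM in any library. The other 3, PECAM1, ESAM and EGFL7, had every shARHGEF2 library above every shNC library, as did 11.3% of all genes tested, with PECAM1 at 0.583 ± 0.0385 and 0.811 ± 0.0471 FPKM (SD, n = 3 each). In limma 0 of these 3 were called (adjusted p = 0.438, 0.499 and 0.363), against 0.277% of all genes tested. EGFL7 alone had an unadjusted p under 0.05, as did 13.7% of all genes tested. The summed level of the list lay between 26.5 and 33.5 FPKM in shNC and between 36.5 and 38.0 FPKM in shARHGEF2 libraries, most of it from EGFL7. The part of these markers in the DLL4 result was not tested. In bulk RNA, more cells that express a gene and more of its RNA per cell cannot be told apart.

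NOTCH3 (ENSG00000074181, chromosome 19 from 15159038 to 15200981, minus strand), a receptor best known from the smooth muscle of vessels, was the other member in which the groups did not overlap. It had 0.248, 0.272 and 0.335 FPKM in shNC replicates 1 to 3 and 0.804, 0.630 and 0.686 FPKM in shARHGEF2 replicates 1 to 3. The groups did not overlap, and the exact permutation test (two-sided) gave p = 0.1, the smallest that 3 libraries against 3 allow. Its means were 0.285 ± 0.0451 and 0.707 ± 0.0890 FPKM (SD, n = 3 each), a ratio of 2.48, which lay between 2.31 and 2.72 with each library left out in turn. On the longest listed transcript of 8666 nt this is an estimated 50.0 to 58.5 read pairs per shNC library and 121 to 142 per shARHGEF2 library. The mean of NOTCH3 over the 6 libraries was 0.496 FPKM, just under the 0.5 FPKM needed to enter the test. NOTCH3 is thus among the 6595 genes with a mean between 0.05 and 0.5 FPKM. Of these, 6.17% had every shARHGEF2 library above every shNC library, and 3.55% also had a ratio of at least 2. Those bounds were set after the data were seen. When all 27605 genes were tested, the difference of NOTCH3 in log2(FPKM + 1) was 0.41 (standard error 0.08, adjusted p = 0.399 in limma), so it did not pass. This scale understates the change of low genes such as NOTCH3. Its unadjusted p in limma was 0.00204, and 2123 of the 27605 genes had an unadjusted p under 0.05. In that test 0.00362% of genes were called.

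The promoters of these genes were read from RefSeq (GRCh38.p14), which had an entry for 8 of the 10 genes, and searched over the 250 bases before the start for the core of the RBPJ site, TGGGAA, on both strands. Promoters are shown for 3 genes, those of the 2 genes whose groups did not overlap and that of HES1, the target whose promoter is best known for its RBPJ sites. Capitals mark the core.
DLL4: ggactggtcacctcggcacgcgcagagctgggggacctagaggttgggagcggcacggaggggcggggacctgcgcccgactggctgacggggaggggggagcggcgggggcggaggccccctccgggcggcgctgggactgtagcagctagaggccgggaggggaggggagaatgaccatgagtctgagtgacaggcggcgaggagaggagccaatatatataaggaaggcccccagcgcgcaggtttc
NOTCH3: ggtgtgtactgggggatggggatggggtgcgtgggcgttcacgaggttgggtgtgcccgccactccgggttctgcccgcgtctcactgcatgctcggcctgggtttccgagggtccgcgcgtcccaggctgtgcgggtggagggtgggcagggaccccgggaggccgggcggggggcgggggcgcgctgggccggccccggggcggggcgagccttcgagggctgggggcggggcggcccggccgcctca
HES1: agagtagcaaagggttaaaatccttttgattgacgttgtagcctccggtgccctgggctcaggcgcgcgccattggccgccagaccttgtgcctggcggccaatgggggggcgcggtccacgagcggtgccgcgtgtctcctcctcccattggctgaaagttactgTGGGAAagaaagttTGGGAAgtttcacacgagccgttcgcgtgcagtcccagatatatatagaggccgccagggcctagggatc
The windows were chr15:40929090-40929339 on the plus strand for DLL4, chr19:15200996-15201245 on the minus strand for NOTCH3 and chr3:194135898-194136147 on the plus strand for HES1. HES1 held 2 matches, whose first letters lie 84 and 70 bases before the start, and the first of them is also a match to the longer form GTGGGAA. DLL4 and NOTCH3 held 0, as did NOTCH1, NOTCH2, JAG1 and JAG2. Of the 35116 promoters in the table, 20.8% held the core and 5.4% the longer form, so a match in a window of this length is common. Of the 5 RBPJ promoters, 1 held 2 matches to both forms. The absence of these letters in a window says nothing on sites outside it.

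The Jagged ligands were at higher levels than the Delta ligands. JAG2 (ENSG00000184916, chromosome 14 from 105140981 to 105168824) had 9.64, 9.37 and 16.45 FPKM in shNC replicates 1 to 3 and 16.3, 15.9 and 14.9 FPKM in shARHGEF2 replicates 1 to 3. The shARHGEF2 libraries were close together, shNC replicates 1 and 2 were below them, and shNC replicate 3 was above them all. The log2 difference was 0.42 (standard error 0.19, 95% interval -0.01 to 0.86, adjusted p = 0.383 in limma). Without shNC replicate 3 it was 0.67, with an adjusted p = 0.0449 in limma, so the call of JAG2 turned on that library. In that refit 102 of all genes were called, against 34 with every library kept. Leaving out any other library gave JAG2 adjusted p-values between 0.543 and 0.658 in limma. JAG1 (ENSG00000101384, chromosome 20 from 10637684 to 10673999) had 1.72, 2.35 and 2.54 FPKM in shNC and 2.50, 2.96 and 3.12 FPKM in shARHGEF2 replicates 1 to 3, and the lowest shARHGEF2 library fell below the highest shNC library. Its log2 difference was 0.28 (standard error 0.14, 95% interval -0.04 to 0.60, adjusted p = 0.435 in limma). Reads that the table gives to overlapping genes were few: the antisense AL050403.2 at JAG1 did not pass 0.00897 FPKM, and AL512356.1 on the strand of JAG2 had 0.371 FPKM in shARHGEF2 replicate 1 and was listed at 0 in the other libraries. DLL1 (ENSG00000198719, chromosome 6 from 170282206 to 170306565), the other Delta ligand, had 0.0115 FPKM in shNC replicate 2, an estimated 0.823 read pairs, and was listed at 0 elsewhere.

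Among the receptors, NOTCH1 (ENSG00000148400, chromosome 9 from 136494433 to 136545786) had 3.96, 4.74 and 5.61 FPKM in shNC replicates 1 to 3 and 5.46, 5.85 and 5.00 FPKM in shARHGEF2 replicates 1 to 3, with overlapping groups. Its log2 difference was 0.16 (standard error 0.13, 95% interval -0.14 to 0.47, adjusted p = 0.648 in limma). NOTCH2 (ENSG00000134250, chromosome 1 from 119911553 to 120069626) had 4.67, 6.61 and 6.41 FPKM in shNC and 5.15, 5.24 and 5.65 FPKM in shARHGEF2 replicates 1 to 3. The shARHGEF2 values fell inside the shNC range, and the log2 difference was -0.11 (standard error 0.14, 95% interval -0.42 to 0.21, adjusted p = 0.801 in limma).

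NOTCH2 has partial copies, NOTCH2NLA, NOTCH2NLB and NOTCH2NLC, whose sequence is nearly identical to its first exons, so that reads can be assigned to either. The summed FPKM of the 3 copies, with means of 18.9 ± 5.79 for shNC and 23.2 ± 1.95 for shARHGEF2 (SD, n = 3 each), was above that of NOTCH2 in every library. NOTCH2NLB had 0.830 FPKM in shNC replicate 2 and between 10.1 and 12.5 FPKM in the other 5 libraries, and NOTCH2NLC had 0.0200 FPKM in shARHGEF2 replicate 3 and between 2.89 and 4.38 FPKM in the others. The value of NOTCH2 is therefore uncertain by the share of reads placed on its copies. NOTCH2 and the 3 copies together gave 24.8 ± 4.89 and 28.6 ± 1.79 FPKM (SD, n = 3 each), with overlapping groups (two-sided exact permutation test, p = 0.3).

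**Figure D2:**
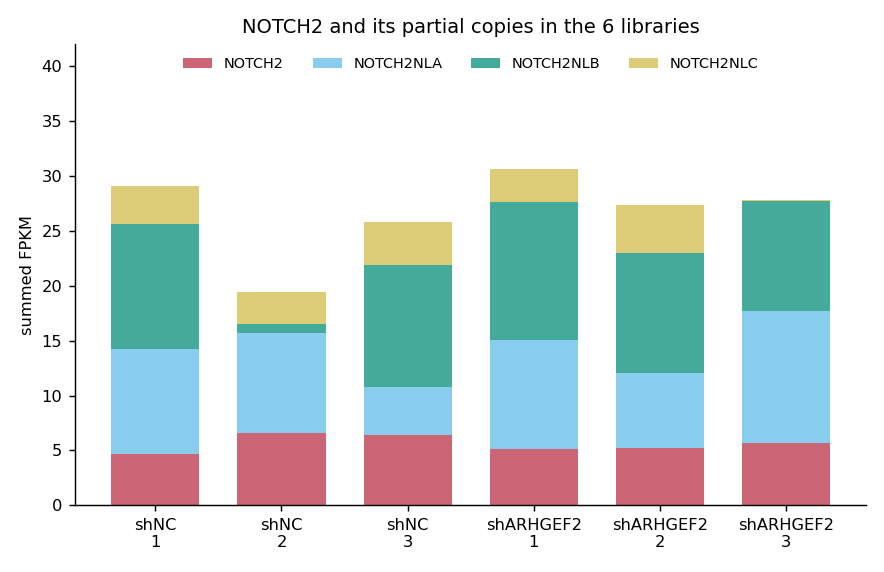
Summed FPKM of NOTCH2 (red) and its partial copies NOTCH2NLA, NOTCH2NLB and NOTCH2NLC, stacked for each library on a linear axis from 0. NOTCH2 itself stays between 4.67 and 6.61 FPKM, while the copies differ more between libraries of the same group.

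RBPJ (ENSG00000168214, chromosome 4 from 26163455 to 26435131), through which the cleaved receptors act, had 0.178, 0.819 and 0.231 FPKM in shNC replicates 1 to 3 and 0.225, 1.02 and 0.763 FPKM in shARHGEF2 replicates 1 to 3. The spread within each group was wide, and replicate 2 was highest in both. The median GC content of its listed transcripts, 40.8%, was the lowest of the 10 genes, and shNC replicate 2 and shARHGEF2 replicate 2 were the libraries with the lowest rho with GC content, -0.465 and -0.291. The part of GC content in these values was not tested for this gene alone, and with the GC content trend removed the log2 difference was 0.26 (adjusted p = 0.371 in limma). Without that correction it was 0.24 (standard error 0.23, 95% interval -0.28 to 0.76, adjusted p = 0.704 in limma). Its pseudogenes RBPJP5 and RBPJP6 did not pass 0.0104 FPKM in any library.

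HES1 and HEY1, the members included as targets, did not pass the test. NOTCH3, which is also on the list of context-dependent targets, was too low to enter it. HES1 (ENSG00000114315, chromosome 3 from 194136145 to 194138732), a repressor whose promoter is printed above, had 3.88, 3.93 and 4.31 FPKM in shNC and 3.94, 3.68 and 3.93 FPKM in shARHGEF2 replicates 1 to 3. Relative to their level these 6 values were the closest together among the 7 members tested, and the groups overlapped. Its log2 difference was -0.05 (standard error 0.11, 95% interval -0.30 to 0.19, adjusted p = 0.880 in limma). HEY1 (ENSG00000164683, chromosome 8 from 79764010 to 79767863), a related repressor, had 0.484, 0.642 and 0.624 FPKM in shNC and 0.577, 0.821 and 0.579 FPKM in shARHGEF2 replicates 1 to 3, again with overlap. Its log2 difference was 0.07 (standard error 0.11, 95% interval -0.19 to 0.32, adjusted p = 0.860 in limma).

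Of the 10 members, 7 had a mean of at least 0.5 FPKM and were tested with limma among 12291 genes. DLL1, and DLL4 and NOTCH3, whose groups did not overlap, had lower means and are not among the 7. At an adjusted p under 0.05, 0 of the 7 were called, where 0.277% of all genes tested were (0.195% higher and 0.0814% lower in shARHGEF2). At an unadjusted p under 0.05 it was also 0 of 7, against 13.7% of all genes tested (8.1% higher, 5.55% lower). Groups without overlap were seen in 0 of these 7 and in 20.5% of all genes tested (11.3% higher, 9.17% lower). Their log2 differences were above 0 in 5 and below 0 in 2, with a median of 0.16, beside a median of -0.0016 over all genes tested. The upper ends of the 7 intervals lay between 0.19 for HES1 and 0.86 for JAG2, so differences up to those sizes fall within the error.

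**Figure D3:**
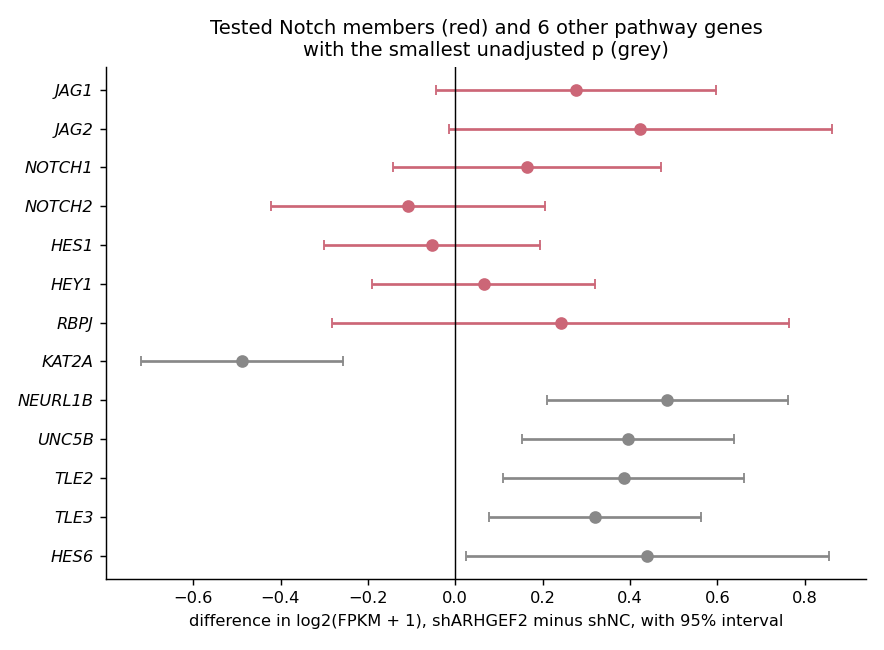
Difference in log2(FPKM + 1), shARHGEF2 minus shNC, with 95% intervals from limma (n = 3 libraries per group), for the 7 tested members (red) and the 6 other genes of the wider lists with the smallest unadjusted p (grey). All 7 red intervals reach across 0, and the grey ones do not, as those genes were picked by unadjusted p.

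The rest of the pathway was described with 9 lists by role, holding 79 genes with the members, of which 63 were tested. In limma 0 of the 63 were called, against 0.277% of all genes tested. An unadjusted p under 0.05 was found for 5, 4 higher and 1 lower, which is 7.94% against 13.7% of all genes tested. Groups without overlap were seen in 12.7% of the 63 (3 higher, 5 lower), against 20.5% of all genes tested. The log2 differences were above 0 in 33 and below 0 in 30, with a median of 0.0029.

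Among the ligands and receptors that are no members, the Delta-like decoy ligand DLL3 had 1.33 ± 0.391 FPKM in shNC and 1.34 ± 0.501 FPKM in shARHGEF2 cells (SD, n = 3 each), and DLK2 had 2.79 ± 0.119 and 3.07 ± 0.335 FPKM. DLK1 did not pass 0.0709 FPKM and NOTCH4 did not pass 0.0920 FPKM in any library. Of the glycosyltransferases that modify the receptors, POFUT1, LFNG and RFNG were tested and 0 were called, against 0.277% of all genes tested. The proteases were well expressed, with FURIN, which cuts the receptors on their way to the surface, at 85.9 ± 13.6 and 95.9 ± 4.75 FPKM (SD, n = 3 each) and the gamma-secretase subunit NCSTN at 41.1 ± 1.24 and 38.7 ± 1.35 FPKM. PSEN2, the gamma-secretase catalytic subunit with the higher level here, had 10.5 ± 0.633 and 8.94 ± 0.383 FPKM (SD, n = 3 each), and its groups did not overlap (adjusted p = 0.407 in limma).

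The 6 genes with the smallest unadjusted p among these lists and a list of VEGF input and endothelial tip cell genes were KAT2A, NEURL1B, UNC5B, TLE2, TLE3 and HES6. KAT2A, a histone acetyltransferase that works with many activators, had 27.0, 26.8 and 22.8 FPKM in shNC replicates 1 to 3 and 17.3, 18.9 and 17.5 FPKM in shARHGEF2 replicates 1 to 3, without overlap. Its log2 difference was -0.49 (standard error 0.10, adjusted p = 0.115 in limma). NEURL1B, a ubiquitin ligase that promotes ligand endocytosis, had 4.32, 4.61 and 5.71 FPKM in shNC and 7.01, 7.34 and 7.21 FPKM in shARHGEF2 replicates 1 to 3, also without overlap (log2 difference 0.49, standard error 0.12, adjusted p = 0.148 in limma). The Groucho corepressors TLE2 and TLE3, which HES proteins recruit, had log2 differences of 0.39 and 0.32 (standard errors 0.12 and 0.11, adjusted p = 0.229 and 0.249 in limma), with every shARHGEF2 library above every shNC library. UNC5B, a netrin receptor found on tip cells, had 0.841 ± 0.0112 and 1.42 ± 0.143 FPKM (SD, n = 3 each), a log2 difference of 0.40 (standard error 0.11, adjusted p = 0.169 in limma). HES6, which counteracts HES1, had 6.75 ± 1.54 and 9.52 ± 2.16 FPKM (SD, n = 3 each), and its groups overlapped (adjusted p = 0.344 in limma). None of these 6 genes passed the threshold.

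**Figure D4:**
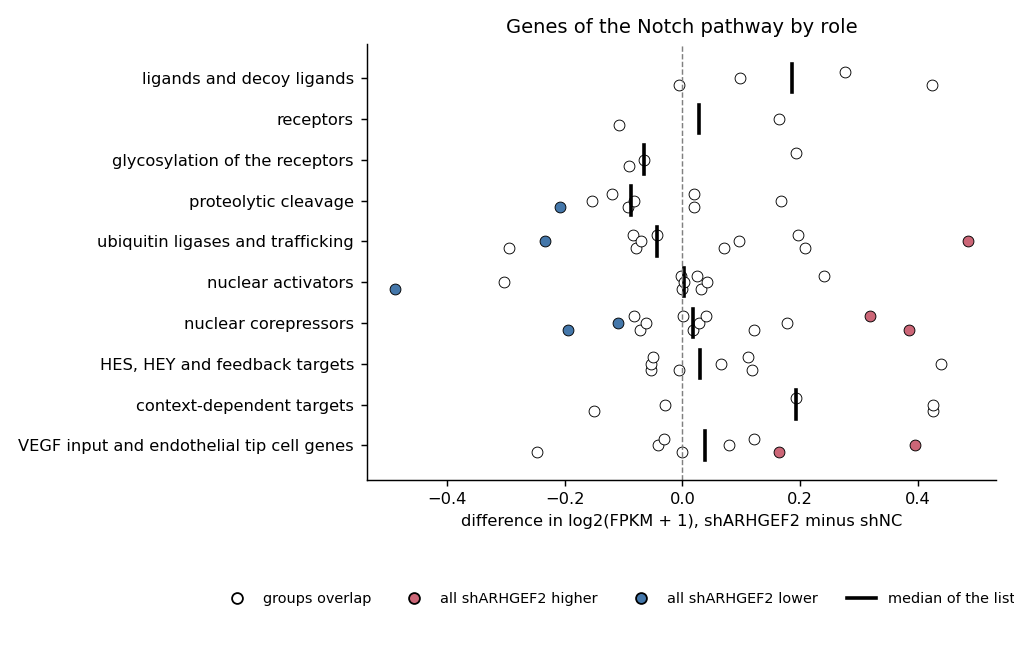
Difference in log2(FPKM + 1), shARHGEF2 minus shNC, of each tested gene in the 9 role lists and in the list of VEGF input and tip cell genes; filled points are genes whose groups do not overlap (red higher, blue lower in shARHGEF2) and the black bars are list medians. Points lie on both sides of 0 in every list, and a gene on 2 lists is drawn on both.

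The other HES and HEY genes were also not called. HES4 had 73.5 ± 8.54 and 79.2 ± 5.22 FPKM (SD, n = 3 each) and HES7 had 40.6 ± 2.89 and 39.2 ± 2.66 FPKM, both far above HES1. NRARP, a feedback inhibitor induced by Notch, had 8.20 ± 1.28 and 7.87 ± 1.33 FPKM, and HEY2 had 0.879 ± 0.214 and 1.04 ± 0.207 FPKM. HES2 had 0.571 and 0.543 FPKM in replicate 1 of shNC and shARHGEF2 and between 1.77 and 1.84 FPKM in the other 4 libraries. HES5, HEYL and DTX1 had means under 0.5 FPKM and were not tested. Of the 8 tested genes of this list, with HES1 and HEY1 counted again, 0 were called, against 0.277% of all genes tested. Of these 8, 4 log2 differences were above 0 and 4 below.

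Of the VEGF input and tip cell list, 12 of 14 genes were in the table and 8 were tested. Of these, 0 were called, against 0.277% of all genes tested. VEGFA, which induces DLL4 in endothelial cells, had 8.75 ± 1.08 and 8.72 ± 0.581 FPKM (SD, n = 3 each). The VEGF receptors FLT1 and FLT4 did not pass 0.00419 FPKM in any library.

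The genes whose values over the 6 libraries were most like those of DLL4 on log2(FPKM + 1) were WNT11, LGI3, RPL7P19, CADM4 and MAPK8IP1, with Pearson's r of 0.999, 0.998, 0.997, 0.995 and 0.995 among the 12291 genes tested. WNT11, a secreted Wnt ligand, had 4.08, 3.48 and 3.90 FPKM in shNC replicates 1 to 3 and 6.72, 7.39 and 6.15 FPKM in shARHGEF2 replicates 1 to 3, and like DLL4 it was lowest in shNC replicate 2 and highest in shARHGEF2 replicate 2. The 6 points come from 2 groups and DLL4 was chosen for its difference between them, so r is given as a description. Among the tested members, JAG2 had the highest r with DLL4, 0.677, at rank 1719, and HES1 the lowest, -0.553.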

How the data were processed

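RNA of 3 shNC and 3 shARHGEF2 libraries was sequenced as strand-marked paired-end libraries with molecular identifiers. The deposited table gives FPKM per gene and library, computed by the authors, beside their own fold changes and p-values, which were not used. The submitters' processing notes name cutadapt 1.9, HISAT2 2.0.4, UMI-tools, StringTie 1.3.4d, DESeq2, edgeR and hg19. The table holds no coordinates, and positions were taken from GENCODE 29 on GRCh38, in which 94.7% of its 112516 transcripts were found. Whether strand was used in counting is not given in the sources used here.

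Groups came from the sample titles. limma 3.58.1 in R 4.3.3 (trended, robust variances, statmod 1.5.0) was run on log2(FPKM + 1) for every gene whose mean over the 6 libraries reached 0.5 FPKM, with Benjamini-Hochberg adjustment over the 12291 genes tested, two-sided, called at an adjusted p under 0.05. Differences on this scale understate the change of low genes. The method was tested on simulated data. Read pairs were estimated from single-transcript genes of at least 600 nt. Between 36.4% and 39.7% of low values lay within 0.1 of a whole number of pairs, where evenly spread values would give 20%. The depth was picked to bring these same values close to whole numbers, so 20% is not the share expected by chance. Most values were not near a whole number, so the read pairs given are approximate. Reads could not be recovered and no count test was used. Single values were compared by exact permutation tests with SciPy 1.17.1. The members and lists were chosen with earlier results of these data known. Named genes were all members, the other ligands, receptors and HES or HEY targets, the 6 pathway genes with the smallest p, and the 5 tested genes most like DLL4. The alternatives were a pseudocount of 0.1, other filters, quantile normalization, plain variances, a replicate block, removal of a GC content trend (lowess, span 0.3), and each library left out.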

Additional observations from a re-analysis of the deposited data

How the results depend on the processing

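Of 96 refitted values of the 7 tested members, 94 kept their direction and stayed above the threshold. JAG2 passed without shNC replicate 3, and HEY1 changed sign without shARHGEF2 replicate 2 (log2 difference -0.0037, against a highest value of 0.10 with another library left out; limma adjusted p = 0.995). Leaving out single libraries, between 0 and 1 members and between 0 and 1 pathway genes were called, that 1 being JAG2, and both counts were 0 under every other alternative. DLL4 and NOTCH3 had log2 differences of 0.23 and 0.41 with a pseudocount of 1, and of 1.12 and 1.07 with 0.1.

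The number of all genes called, 34 (24 higher, 10 lower), was 1 with no filter beyond a value above 0, 54 with at least 1 FPKM in 3 or more libraries, 19 after quantile normalization, and 7 without trended and robust variances. With 1 library left out it lay between 6 (without shARHGEF2 replicate 3) and 102 (without shNC replicate 3). With the replicate block it was 0, also with the GC content trend removed, although 1976 and 2139 genes had an unadjusted p under 0.05. Residuals of libraries with the same number correlated at 0.184, 0.159 and -0.105, and 4 of 6 libraries correlated best with their own number. The sample titles give only the number, and a batch shared by libraries of the same number was not tested. The cause of these changes was not tested.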

Other observations

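Some genes of the lists that fall outside the naming rule are given here as values, and were chosen after their values were seen. ESM1, a secreted proteoglycan of tip cells, had 0.270, 0.267 and 0.248 FPKM in shNC replicates 1 to 3 and 0.0537, 0.120 and 0.0606 FPKM in shARHGEF2 replicates 1 to 3. It was lower in every shARHGEF2 library, the opposite of DLL4, and its mean was too low for it to be tested. BEND6, a corepressor that binds RBPJ, was also too low to be tested, at 0.376 ± 0.0895 FPKM in shNC and 0.203 ± 0.0258 FPKM in shARHGEF2 cells (SD, n = 3 each), without overlap. MYC, a target of Notch in some cell types, had 10.7, 3.71 and 3.99 FPKM in shNC and 32.65, 3.13 and 3.78 FPKM in shARHGEF2 replicates 1 to 3, so that replicate 1 was highest in both groups (adjusted p = 0.901 in limma). The cyclin gene CCND3 had 24.2 ± 6.07 and 32.4 ± 4.61 FPKM (SD, n = 3 each), and its groups overlapped (adjusted p = 0.386 in limma).

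Of 9 fibroblast markers, 5 had a mean of at least 0.5 FPKM and were tested. In limma 0 of them were called, against 0.277% of all genes tested. COL1A1 alone had an unadjusted p under 0.05, as did 13.7% of all genes tested. LUM had 32.7 ± 6.02 and 27.1 ± 3.97 FPKM (SD, n = 3 each) and COL1A1 had 6.37 ± 0.390 and 8.66 ± 0.816 FPKM, without overlap. COL3A1 had 4.43 ± 0.644 and 4.79 ± 0.444 FPKM and DCN 2.36 ± 0.296 and 1.88 ± 0.463 FPKM, while COL1A2 and PDGFRA did not pass 0.0453 FPKM in any library. Of 7 leukocyte markers in the table, 6 had a mean under 0.5 FPKM, and CD68 had 77.0 ± 14.6 and 78.8 ± 5.86 FPKM (SD, n = 3 each), and PTPRC did not pass 0.0239 FPKM.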
